A study of Saccharomyces cerevisiae with 24 samples.

Results

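The expression of 10 genes for enzymes of the mitochondrial tricarboxylic acid (TCA) cycle was followed on 2 sets of *Saccharomyces cerevisiae* expression arrays. The genes were a fixed list, *CIT1* (YNR001C), *ACO1* (YLR304C), *IDH1* (YNL037C), *IDH2* (YOR136W), *KGD1* (YIL125W), *KGD2* (YDR148C), *LSC1* (YOR142W), *LSC2* (YGR244C), *FUM1* (YPL262W) and *MDH1* (YKL085W). No filter on measured values made the list, although it was chosen with earlier results of these data known. All 10 were measured among the 5449 named genes of the first array type and among the 5656 of the other, each by a single probe set on each type. The 6 genes from *CIT1* to *KGD2* make up the oxidative branch and *FUM1* and *MDH1* the reductive branch, while *LSC1* and *LSC2* belong to neither.

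The TCA cycle oxidizes the acetyl group of acetyl-CoA to carbon dioxide and passes the electrons to the respiratory chain, which needs oxygen and heme. Yeast cells without oxygen cannot run it as a full circle, and the enzymes then work as separate branches. The oxidative branch leads from citrate to 2-oxoglutarate, the carbon skeleton of glutamate, and the reductive branch turns oxaloacetate back through malate to fumarate. In yeast, genes of the cycle are activated by the heme-activated Hap2/3/4/5 complex, whose Hap4 subunit sets its activity, and the early genes of the oxidative branch also by Rtg1 and Rtg3 when respiration is impaired.

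Strain L51 (*MATa*, *hap1::LEU2*, *trp1::HisG*, with mutant *ura3*, *leu2*, *his4* and *ade1* alleles) lacks the chromosomal gene of Hap1, a heme-responsive activator. Together with a UAS1/*CYC1-lacZ* reporter plasmid it carried a centromeric plasmid, either with genomic *HAP1*, which gave the *HAP1* cells, or empty, which gave the *Δhap1* cells. *HAP1* cells were kept in air, in an anaerobic chamber with oxygen in the parts-per-billion range for 1.5 h or 6 h, or for 6 h with cobalt chloride at 400 µM. *Δhap1* cells were kept in air or without oxygen for 6 h. Strain MHY100 (*MATa*, *hem1-Δ100*, with mutant *ura3*, *leu2*, *his4* and *ade1* alleles) makes heme only from supplied 5-aminolevulinic acid and was heme-deficient on 2.5 µg/ml of it and heme-sufficient on 250 µg/ml. All cultures grew in synthetic complete medium, and each of the 8 conditions was measured on 3 arrays from independently grown cells, 18 arrays for L51 and 6 for MHY100. The study's text also says that a replicate was made in a different yeast strain, without saying which, whereas the labels give a single strain within each set. For the cobalt arrays the titles name the *HAP1* plasmid and the sample descriptions the empty one, and the titles were used. *HAP1* itself had log2 intensities of 9.77 to 12.13 on the 12 arrays of *HAP1* cells, cobalt included, and of 5.76 to 6.57 on the 6 arrays of *Δhap1* cells. All 6 MHY100 arrays carry the *hem1* deletion, so their *HEM1* levels of 7.49 to 8.60 check no label.

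Values are log2 intensities, so a difference of 1 is a 2-fold change. A level says how bright a gene's own probe set was and is not compared between genes or between the 2 array types. On L51 arrays all 180 values of the 10 genes were above the signal that 95% of the *S. pombe* probe sets of the same array stayed under, by 0.37 to 5.91 on the log2 scale, whereas 66.2% to 94.1% of all *S. cerevisiae* probe sets were. Some arrays stood apart from their replicates. On the replicate 3 array labelled 1.5 h the hypoxic genes *ANB1* and *DAN1* were at 9.02 and 8.01, below and inside the range of the 3 aerobic *HAP1* arrays, against 14.14 and 14.15 on replicate 1 and 13.41 and 13.57 on replicate 2. On the replicate 3 array labelled cobalt *CYC1* (cytochrome *c*) was at 9.41, against 13.51 and 13.46, and *ANB1* at 12.22, against 9.64 and 9.49. On the replicate 3 array of *HAP1* cells labelled 6 h, which carried much of the *IDH1*, *ACO1* and *IDH2* changes at 6 h, *DAN1* was at 12.77, against 14.50 and 14.55. Fits were therefore repeated without 3 arrays, those of *HAP1* replicate 3 with cobalt, at 6 h and at 1.5 h, a choice taken over from an earlier analysis of these data. Weights estimated by limma for these arrays were 0.61, 0.31 and 0.16. Aerobic *HAP1* replicate 2 (0.16) and cobalt replicate 2 (0.18) also had low weights and stayed in. In the fits of all arrays most changes of the 10 genes were small, and quantile scaling over the named genes alone, which moved the median change of all genes by 0.07 to 0.27, turned the sign of 21 of 100 member changes, none of them larger than 0.25 and none at 1.5 h or at 6 h in *HAP1* cells.

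None of the 10 genes passed the test in any of the 10 comparisons (limma, Benjamini-Hochberg adjusted p under 0.05 over all genes). The share of all genes that passed was 0.0184% for *Δhap1* against *HAP1* cells in air, 0.0367% for 1.5 h without oxygen, 2.15% for 6 h in *HAP1* cells and 10.9% for 6 h in *Δhap1* cells against aerobic *Δhap1* cells. It was 7.05% for *Δhap1* cells at 6 h against aerobic *HAP1* cells, 0.0184% for *Δhap1* against *HAP1* cells at 6 h, 15.3% for 6 h against 1.5 h, 0.147% for cobalt and 1.64% for heme deficiency. At an unadjusted p under 0.05 the same test gave *LSC1* at 1.5 h, *LSC2* in *Δhap1* cells at 6 h against aerobic *HAP1* cells, *MDH1* with cobalt, *ACO1*, *IDH1* and *LSC1* in heme deficiency, and none of the 10 in the other 6 comparisons. Over all genes 15.7%, 24.7%, 10.2% and 18.7% were under that p in the 4 comparisons named, and 1.39% to 33.7% in the other 6. Under other settings of limma up to 5 of the 10 passed at 1.5 h, in a fit that called 35.5% of all genes. Up to 3 passed for 6 h against 1.5 h (51.4% of all genes) and 2 in heme deficiency (17.3%). Up to 2 passed in *Δhap1* cells at 6 h against aerobic *HAP1* cells (39.4%) and 1 against aerobic *Δhap1* cells (41.8%), as given beside those results. A missed threshold does not show equal levels. The 95% confidence interval of the change stayed inside 2-fold in both directions for 6 of the 10 genes at 1.5 h, for 6 in *Δhap1* against *HAP1* cells in air and for 6 with cobalt. It did so for 5 in *HAP1* cells at 6 h, for 8 in *Δhap1* cells at 6 h and for 8 in heme deficiency.

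**Figure D1:**
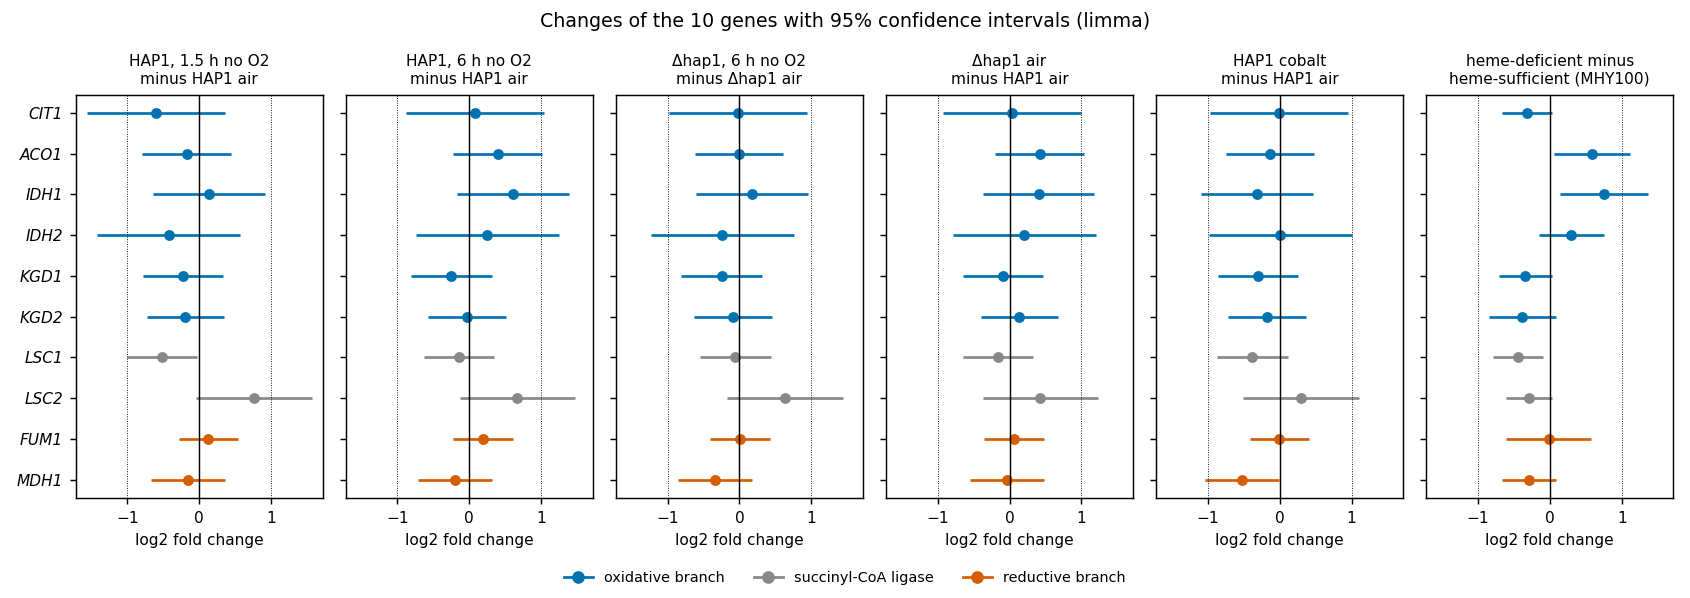
Log2 fold change (horizontal axis) of each of the 10 genes in 6 comparisons, with its 95% confidence interval from limma (n = 3 arrays per condition). Dotted lines mark 2-fold changes, blue the oxidative branch, grey succinyl-CoA ligase and orange the reductive branch. Most intervals include 0, and that of *CIT1* at 1.5 h ran from -1.56 to 0.36.

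The 1.5 h comparison asked how the cycle's genes stood early after oxygen was removed. *CIT1*, which encodes citrate synthase, the entry enzyme of the cycle, had log2 intensities of 13.20, 12.33 and 12.44 on aerobic *HAP1* replicates 1, 2 and 3, and of 11.74, 11.24 and 13.19 at 1.5 h. Replicates 1 and 2 were below every aerobic array and replicate 3 was inside their range. The log2 change was -0.60 (SE 0.45, 95% interval -1.56 to 0.36, adjusted p = 0.51), made of same-numbered differences of -1.46, -1.09 and 0.75. *IDH2*, the catalytic subunit of mitochondrial isocitrate dehydrogenase, had 12.96, 12.81 and 12.90 in air and 12.25, 11.59 and 13.57 at 1.5 h, again low on replicates 1 and 2 and high on replicate 3. Its change was -0.42 (SE 0.46, adjusted p = 0.67), smaller than the distance between its lowest and highest 1.5 h array.

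The other oxidative genes followed the same arrays. *ACO1* (aconitase), *IDH1* (the regulatory isocitrate dehydrogenase subunit), *KGD1* and *KGD2* (the E1 and E2 components of 2-oxoglutarate dehydrogenase) had changes between -0.22 and 0.13. All 6 oxidative genes were below the same-numbered aerobic array on replicate 1, and all 6 on replicate 2, whereas none was on replicate 3. Over all genes 49.8%, 41.2% and 33.8% were lower on these replicates. The median difference of the 10 genes was -0.65, -0.23 and 0.44, against 0.002, 0.19 and 0.15 over all genes. Replicates 1 and 3 were hybridized in the same round as their aerobic array and replicate 2 was not, so the within-round values are -0.65 and 0.44 and point in opposite directions.

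Succinyl-CoA ligase, which makes succinate and ATP, had subunit genes with opposite signs. *LSC1* (alpha) had 13.54, 14.17 and 13.30 in air and 12.74, 13.33 and 13.38 at 1.5 h, a change of -0.52 (SE 0.23, interval -1.01 to -0.03, adjusted p = 0.29). *LSC2* (beta) had 11.41, 9.37 and 10.75 in air and 11.51, 10.81 and 11.48 at 1.5 h, a change of 0.76 (SE 0.37, interval -0.04 to 1.56, adjusted p = 0.34). Most of it came from aerobic replicate 2, the lowest of the 18 arrays for *LSC2*, and without replicate 2 the change was 0.42. In the reductive branch *FUM1* (fumarase) changed by 0.13 (SE 0.19) and *MDH1* (mitochondrial malate dehydrogenase) by -0.16 (SE 0.24), with overlapping arrays. No gene of the 10 had 1.5 h arrays that stayed clear of the aerobic ones, against 6.77% of all genes clear above and 2.22% clear below.

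The calls in this comparison depended on which arrays entered and on how they were weighted. Without the 3 arrays named above *CIT1* (log2 change -1.28, adjusted p = 0.013) and *LSC1* (-0.80, adjusted p = 0.046) passed, with 8.48% of all genes. Without replicate 3 *CIT1* alone of the 10 passed (-1.28, adjusted p = 0.033), with 6.29% of all genes. Array weights gave the replicate 3 array at 1.5 h 0.16, and aerobic *HAP1* replicates 1, 2 and 3 had 7.16, 0.16 and 2.95. With these weights, on both sides of the comparison, 5 genes were lower (*CIT1*, *ACO1*, *KGD1*, *KGD2* and *LSC1*, adjusted p = 0.0014 to 0.043), with 35.5% of all genes.

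**Figure D2:**
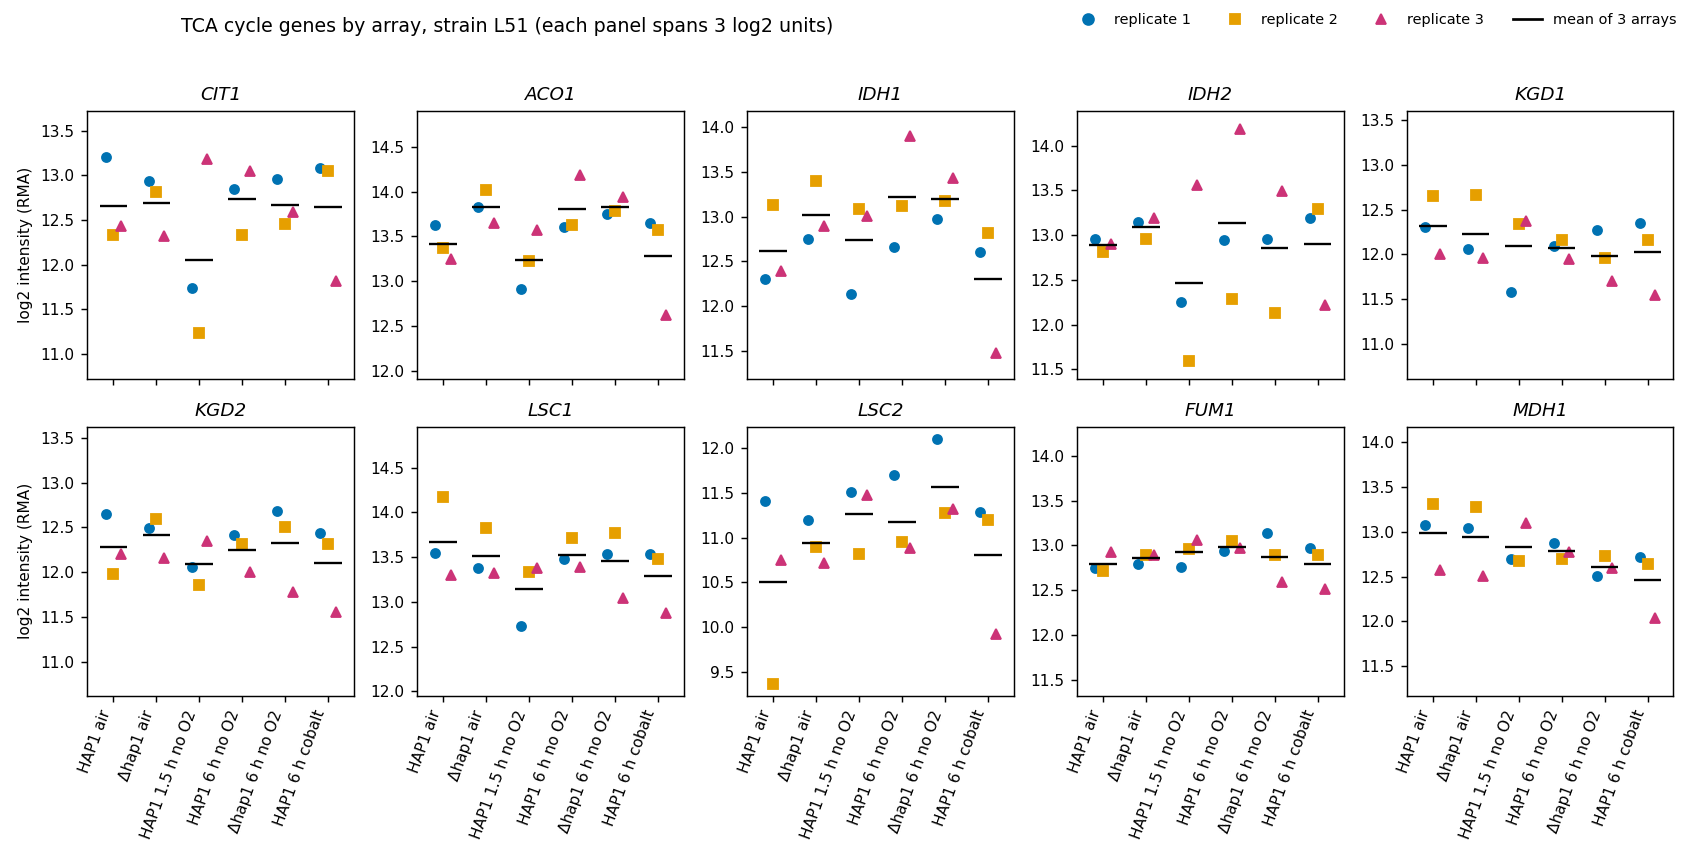
Log2 intensity (vertical axis, every panel spanning 3 log2 units) of the 10 genes on the 18 L51 arrays, by condition. Symbols mark the replicate number and black bars the mean of 3 arrays. At 1.5 h the replicate 3 triangle is the highest point for *CIT1* (13.19) and *IDH2* (13.57), and among the 3 cobalt points it is the lowest in all 10 panels.

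After 6 h without oxygen the 6 oxidative genes of *HAP1* cells had changes between -0.25 and 0.61, with no call. *IDH1* had 12.31, 13.14 and 12.40 in air and 12.66, 13.12 and 13.90 at 6 h, the largest oxidative difference (0.61, SE 0.36, interval -0.17 to 1.39, adjusted p = 0.42). It came mainly from replicate 3, whose same-numbered difference was 1.50 against 0.35 and -0.01. *ACO1* (0.39, SE 0.29) and *IDH2* (0.25, SE 0.46) were likewise highest on that array, at 14.19 for each gene's own probe set. *CIT1* had 12.85, 12.33 and 13.04, overlapping the aerobic arrays (0.08, SE 0.45).

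Without the 3 arrays none of the 10 passed at 6 h. *KGD1* and *KGD2* had changes of -0.25 (SE 0.26) and -0.03 (SE 0.25) at 6 h. *LSC2* was at 11.70, 10.95 and 10.88, a difference of 0.67 (SE 0.37, adjusted p = 0.39) that was 0.21 without replicate 2. *FUM1* had 12.75, 12.72 and 12.92 in air and 12.94, 13.05 and 12.97 at 6 h. Its arrays did not overlap, yet the change was 0.19 (SE 0.19, adjusted p = 0.66), and it was the only 1 of the 10 with arrays clear of the aerobic ones, against 4.11% of all genes clear above and 7.62% clear below. *MDH1* changed by -0.20 (SE 0.24). Over the 10 genes the median change was 0.14, against -0.10 over all genes, with 6 values above 0 and 4 below. No 6 h array shared a hybridization round with an aerobic array, so no value within a round can be given.

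Between 1.5 h and 6 h the mean difference of the oxidative genes was 0.42, against -0.25 at 1.5 h and 0.18 at 6 h from air. *ACO1* had 12.91, 13.22 and 13.57 at 1.5 h and 13.60, 13.63 and 14.19 at 6 h, without overlap (0.57, SE 0.29, interval -0.05 to 1.19, adjusted p = 0.18). *LSC1* was also clear, at 13.48, 13.72 and 13.39 against 12.74, 13.33 and 13.38 (0.38, SE 0.23, adjusted p = 0.26), although its replicate 3 difference was 0.01. These were 2 of the 10, against 4.73% of all genes clear above and 17.7% clear below.

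*CIT1* had a difference of 0.69 (SE 0.45, adjusted p = 0.31), with 1.11 and 1.09 on replicates 1 and 2 and -0.14 on replicate 3. *IDH2* was 0.67 higher (SE 0.46, adjusted p = 0.33) with similar same-numbered differences of 0.69, 0.70 and 0.62, although its arrays overlapped. *FUM1* (0.06, SE 0.19) and *MDH1* (-0.04, SE 0.24) had differences near 0. The median over the 10 genes was 0.27, against -0.23 over all genes. Without the 3 arrays *CIT1* passed (1.10, adjusted p = 0.0091), with 26.6% of all genes, and with array weights *CIT1*, *ACO1* and *LSC1* did, with 51.4% of all genes.

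Deleting *hap1* left the cycle's genes without a call in air or at 6 h. Of all genes *HAP1* alone passed in air. *CYC1* missed the threshold at 9.86, 10.06 and 9.68 in *Δhap1* cells against 13.37, 14.03 and 13.26 in *HAP1* cells. So did *ANB1*, at 13.45, 12.58 and 13.04 against 9.63, 10.46 and 9.63. A missing call here thus does not show that a gene kept its level. In air *ACO1* had 13.83, 14.02 and 13.65 in *Δhap1* cells against 13.62, 13.37 and 13.24 in *HAP1* cells, clear above (0.42, SE 0.29, interval -0.20 to 1.04, adjusted p = 1.00). It was the only 1 of the 10 with clear arrays, against 2.57% of all genes clear above and 0.844% clear below. *IDH1* was higher in all 3 same-numbered pairs, by 0.45, 0.26 and 0.50 (0.40, SE 0.36), although its arrays overlapped. *IDH2* was also higher in all 3, by 0.18, 0.14 and 0.29 (0.21, SE 0.46). Each of these pairs was hybridized in the same round. *CIT1* differed by 0.03 (SE 0.45), *FUM1* by 0.06 (SE 0.19) and *MDH1* by -0.04 (SE 0.24). The median of the 10 was 0.10, against 0.11 over all genes.

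At 6 h without oxygen *Δhap1* and *HAP1* cells, whose same-numbered arrays also shared a round, had differences between -0.28 (*IDH2*, SE 0.46) and 0.39 (*LSC2*, SE 0.37), and no gene of the 10 had clear arrays (0.973% of all genes clear above, 1.38% clear below). *LSC2* was higher in all 3 same-numbered pairs, by 0.41, 0.33 and 0.44. The 6 h change itself differed between *Δhap1* and *HAP1* cells by -0.49 (*IDH2*, SE 0.65) to 0.09 (*LSC1*, SE 0.32). None of the 10 and 0% of all genes passed that interaction test in limma, with 95 genes and none of the 10 at an unadjusted p under 0.05. The interval for *IDH2*, from -1.89 to 0.92, leaves room for a difference of more than 2-fold.

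*LSC2* stood out in *Δhap1* cells at 6 h, with 12.11, 11.28 and 11.32 against 11.20, 10.89 and 10.72 in aerobic *Δhap1* cells. The arrays did not overlap, as for 6.92% of all genes above and 13.9% below, and the change was 0.63 (SE 0.37, interval -0.17 to 1.43, adjusted p = 0.26). Against aerobic *HAP1* cells the difference was 1.06 (SE 0.37, interval 0.26 to 1.86, adjusted p = 0.10). The same-numbered differences were 0.70, 1.91 and 0.57, so the low aerobic replicate 2 array carried much of it, and without replicate 2 it was 0.64 (adjusted p = 0.20). *LSC2* passed against aerobic *HAP1* cells with quantile scaling over the named genes (1.12, adjusted p = 0.033, with 6.97% of all genes) and with array weights (0.58, adjusted p = 0.031, with 39.4%), and against aerobic *Δhap1* cells with array weights (0.63, adjusted p = 0.017, with 41.8%). In the same fit that called 39.4% of all genes *KGD1* was lower than in aerobic *HAP1* cells (-0.50, adjusted p = 0.049). The partner subunit *LSC1* changed by -0.06 (SE 0.23) against aerobic *Δhap1* cells, with 13.54, 13.77 and 13.05 against 13.38, 13.82 and 13.32. *ACO1* was clear above aerobic *HAP1* cells at 6 h too (0.41, SE 0.29, adjusted p = 0.40), as were 5.96% of all genes, with 9.67% clear below, but differed by -0.01 from aerobic *Δhap1* cells. *MDH1* had the lowest change in *Δhap1* cells, -0.34 (SE 0.24, adjusted p = 0.35) from aerobic *Δhap1* cells.

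Cobalt, which mimics part of the response to low oxygen, gave median differences over the 10 genes of 0.01, 0.18 and -0.62 on replicates 1, 2 and 3. *MDH1* had 12.72, 12.64 and 12.03 with cobalt and 13.07, 13.31 and 12.58 in air, lower in all 3 same-numbered pairs by -0.35, -0.66 and -0.54 although the arrays overlapped (-0.52, SE 0.24, interval -1.03 to -0.01, adjusted p = 0.47). No gene of the 10 had clear arrays (2.26% of all genes clear above, 5.51% clear below). *CIT1* was at 13.08 and 13.05 on replicates 1 and 2 and at 11.81 on replicate 3, and *IDH1* at 12.61, 12.82 and 11.47. On replicate 3 all 10 genes were below the same-numbered aerobic array, as were 79.6% of all genes. On replicates 1 and 2 this held for 5 and 4 of the 10, against 52.2% and 39.3% of all genes. Replicate 1 alone shared a round with its aerobic array. Without the 3 arrays none of the 10 passed.

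Under heme deficiency in strain MHY100 the genes of the oxidative branch had changes of both signs, and no difference between them was tested. *ACO1* and *IDH1* were higher in heme-deficient cells and *CIT1*, *KGD1*, *LSC1*, *LSC2* and *MDH1* lower, each with no overlap between the 3 arrays of a dose, though none passed the test. These were 2 of the 10 clear above, against 7.90% of all genes, and 5 clear below, against 16.7%. *IDH1* had log2 intensities of 9.38, 8.27 and 8.76 in heme-deficient and 8.04, 7.97 and 8.13 in heme-sufficient cells (0.76, SE 0.27, interval 0.14 to 1.37, adjusted p = 0.22). *ACO1* had 11.16, 10.37 and 10.61 against 10.31, 9.89 and 10.17 (0.59, SE 0.23, interval 0.06 to 1.12, adjusted p = 0.24). Heme-deficient replicate 1 was the highest array for both genes. *IDH2*, the partner of *IDH1*, had 11.44, 11.07 and 10.90 against 10.66, 10.79 and 11.08, which overlapped (0.30, SE 0.20, adjusted p = 0.41).

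*LSC1* had 9.84, 9.61 and 9.66 in heme-deficient and 10.18, 10.05 and 10.22 in heme-sufficient cells, the smallest p of the 10 (-0.44, SE 0.15, interval -0.78 to -0.10, adjusted p = 0.21). *LSC2* had the same sign as its partner here (-0.29, SE 0.14, adjusted p = 0.30), with 7.96, 8.06 and 8.08 against 8.37, 8.31 and 8.28. *CIT1* had 9.92, 10.01 and 9.72 against 10.24, 10.13 and 10.23 (-0.32, SE 0.15, adjusted p = 0.29). Within 2-oxoglutarate dehydrogenase *KGD1* was clear (-0.34, SE 0.16) and *KGD2* overlapped (-0.38, SE 0.20).

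*MDH1* had 10.60, 10.83 and 10.55 against 10.84, 10.87 and 11.15 (-0.29, SE 0.16, adjusted p = 0.35), a separation of 0.01 between the nearest arrays. *FUM1* spread from 9.43 to 10.48 in heme-deficient cells around heme-sufficient levels of 9.87 to 9.95 (-0.02, SE 0.26). The median change of the 10 genes was -0.29, against -0.06 over all genes. With the hybridization round as a block, which leaves out heme-deficient replicate 3 because its round is not known here, *ACO1* (0.73, adjusted p = 0.036) and *IDH1* (0.87, adjusted p = 0.046) passed, with 17.3% of all genes. Same-numbered *ACO1* arrays of replicates 1 and 2, each pair from 1 round, differed by 0.85 and 0.48, and those of *IDH1* by 1.34 and 0.30.

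**Figure D3:**
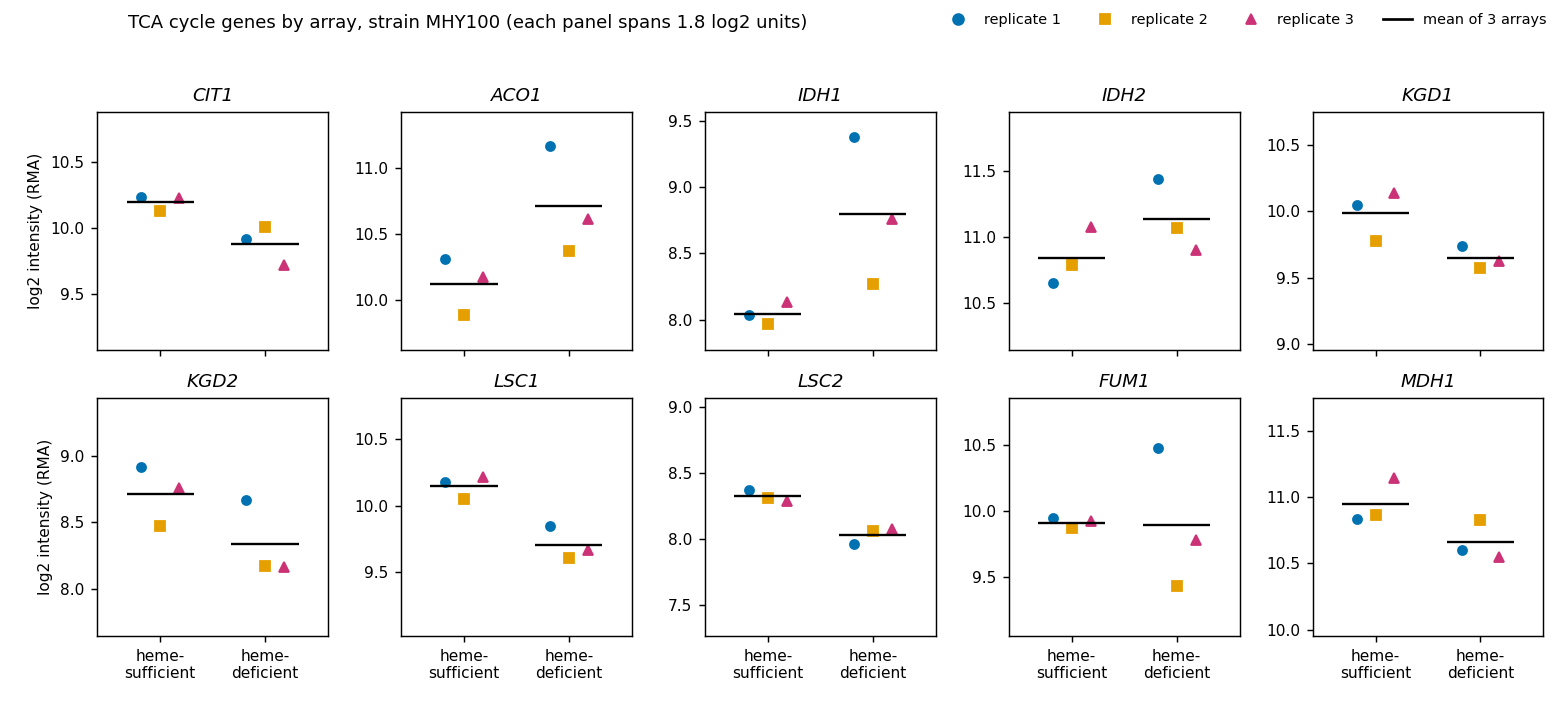
Log2 intensity (vertical axis, every panel spanning 1.8 log2 units) of the 10 genes on the 6 MHY100 arrays at the 2 doses of 5-aminolevulinic acid. Symbols mark the replicate number and bars the mean of 3 arrays. *ACO1* and *IDH1* lie higher in heme-deficient cells and 5 genes, among them *LSC1* (9.61 to 9.84 against 10.05 to 10.22), lie lower without overlap.

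The oxidative and reductive branches were compared by the mean change of the 6 oxidative genes minus that of the 2 reductive genes, a description with no test. This branch gap was 0.17 ± 0.14 (SD of 3 same-numbered differences) for *Δhap1* against *HAP1* cells in air, -0.23 ± 0.35 at 1.5 h, 0.18 ± 0.33 for *HAP1* cells at 6 h, 0.09 ± 0.19 for *Δhap1* cells at 6 h and 0.11 ± 0.29 with cobalt. Each of the last 4 was smaller than its own spread. In *Δhap1* cells at 6 h against aerobic *HAP1* cells it was 0.27 ± 0.17.

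Array by array, set to a mean of 0 in the reference group, the gap was 0.15, 0.18 and 0.19 in aerobic *Δhap1* cells and 0.13, -0.10 and -0.02 in aerobic *HAP1* cells, without overlap but with a separation of 0.02. Between 6 h and 1.5 h it was 0.41 ± 0.05, with same-numbered values of 0.47, 0.37 and 0.41. The oxidative mean was 0.42, with 0.65, 0.42 and 0.20 on replicates 1, 2 and 3. The reductive mean of 0.01 joined opposite signs, 0.18, 0.05 and -0.21, so on replicate 3 both branches made the gap. Both replicate 3 arrays of this comparison were among those that stood apart. Of the same-numbered pairs only replicate 2 shared a round, with 0.37. In heme-deficient cells the gap was 0.29, 0.23 and 0.25 and in heme-sufficient cells 0.09, -0.08 and -0.01, also without overlap, a difference of 0.25. There the oxidative mean was 0.10 and joined opposite changes, *ACO1*, *IDH1* and *IDH2* above 0 and *CIT1*, *KGD1* and *KGD2* below, so it describes no single oxidative gene, while the reductive mean was -0.15.

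**Figure D4:**
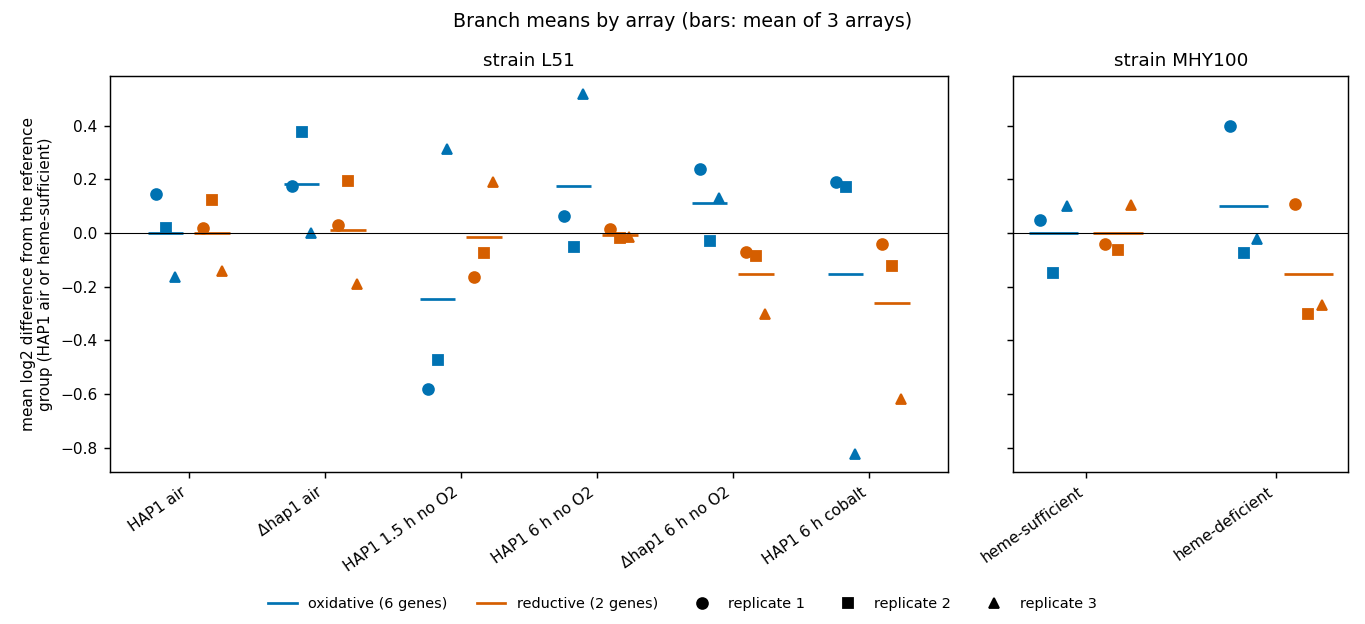
Mean log2 difference from the reference group (aerobic *HAP1* cells for L51, heme-sufficient cells for MHY100) of the 6 oxidative (blue) and 2 reductive (orange) genes on each array, with the mean of 3 arrays as a bar. The oxidative mean ranged from -0.58 to 0.31 at 1.5 h, and both branches were lowest on cobalt replicate 3 (-0.82 and -0.62).

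The genes that work beside the 10 were described from fixed lists, with 40 genes measured. Of the 40 none passed at 1.5 h, with cobalt or in the interaction test, *HAP1* alone passed in each direct comparison of *Δhap1* with *HAP1* cells, and *HAP4* alone passed at 6 h in *HAP1* cells and in heme deficiency. In *Δhap1* cells at 6 h 4 passed (10.0%) against aerobic *Δhap1* cells, beside 10.9% of all genes, and 4 (10.0%) against aerobic *HAP1* cells, beside 7.05%. Between 6 h and 1.5 h 6 passed (15.0%), beside 15.3% of all genes, 3 higher and 3 lower. These shares are near those of all genes and say nothing particular of the list. Among them was *HAP4*, the regulatory subunit of the Hap2/3/4/5 complex, with 11.62, 11.63 and 10.70 in aerobic *HAP1* cells and 11.91, 11.86 and 10.61 at 1.5 h, a change of 0.15 (SE 0.44). At 6 h it was at 8.90, 8.86 and 10.00, lower than every aerobic array, a log2 change of -2.06 (SE 0.44, adjusted p = 0.033). It ran from 8.88 to 9.49 over the 3 arrays of *Δhap1* cells at 6 h and fell by 1.66 from aerobic *Δhap1* cells (10.98, 11.15 and 10.24, adjusted p = 0.034), with 1 of the 3 arrays at 6 h not above the *S. pombe* signal. The 6 h level was also lower than that at 1.5 h (-2.21, adjusted p = 0.018), and no difference in the 6 h change between *Δhap1* and *HAP1* cells passed (0.40, SE 0.62, adjusted p = 0.94). In heme deficiency *HAP4* fell by 1.43 (SE 0.22, adjusted p = 0.022), from 7.61, 7.59 and 7.91 to 5.82, 6.51 and 6.49.

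*HAP4* thus passed in comparisons in which none of the 10 cycle genes did, but whether the cycle genes follow *HAP4* was not tested. In heme deficiency 5 of the 10 were clear below, against 16.7% of all genes, and 2 clear above, against 7.9%. At 6 h in *HAP1* cells only 5 of the 10 intervals stayed inside 2-fold. Without the 3 arrays the 6 h change of *HAP4* was -2.67 (adjusted p = 7.2e-05) in *HAP1* cells. With the hybridization round as the block none of its L51 changes passed: they were -1.78 (adjusted p = 0.32) for *HAP1* cells at 6 h, -1.38 (0.26) for *Δhap1* cells and -2.08 (0.060) for 6 h against 1.5 h. Of the 14 calls of related genes on L51 arrays, *HAP1* itself left out, 14 were lost without replicate 1, 13 without replicate 2, 5 without replicate 3 and 2 without the 3 arrays. *HAP2*, another subunit, was lower at 6 h than at 1.5 h (-0.90, adjusted p = 0.031), as was *MKS1*, which holds back the Rtg pathway (-1.05, adjusted p = 0.026). *RTG3* was lower in *Δhap1* cells at 6 h than in aerobic *Δhap1* cells (-0.87, adjusted p = 0.035) and aerobic *HAP1* cells (-0.86, adjusted p = 0.042), with 2 of its 3 arrays at 6 h not above the *S. pombe* signal.

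Genes of succinate dehydrogenase, which joins the cycle to the respiratory chain, had their lowest L51 means at 1.5 h, as *CIT1* had. *SDH1*, *SDH2* and *SDH4* changed more than *CIT1* there, and whether they vary with it was not tested. With cobalt *SDH1* had 12.33, 12.01 and 11.24, below every aerobic array though without a call, whereas *CIT1* changed by -0.01 (SE 0.45). The other subunits overlapped air with cobalt. *SDH2* ran from 9.15 to 10.76 against 10.47 to 11.02, and *SDH4* from 11.42 to 12.62 against 12.03 to 12.84. *SDH3* had a mean of 12.97 against 12.43. *SDH1*, the flavoprotein subunit, had 12.74, 13.38 and 12.45 in air, 10.71, 11.46 and 12.46 at 1.5 h, and 12.68, 12.98 and 12.85 at 6 h. At 1.5 h the change was -1.31 (SE 0.39, adjusted p = 0.25), with replicate 3 inside the aerobic range, and at 6 h it was -0.02 (SE 0.39). *SDH1* was higher at 6 h than at 1.5 h (1.29, SE 0.39, adjusted p = 0.042), and so was the membrane anchor *SDH4* (1.84, SE 0.54, adjusted p = 0.038), at 13.04, 12.84 and 12.58 against 10.51, 9.90 and 12.53.

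*SDH2*, the iron-sulfur subunit, had a 1.5 h change of -1.17 (SE 0.49, adjusted p = 0.28) and a difference of 1.05 between 6 h and 1.5 h (SE 0.49, adjusted p = 0.15). Without the 3 arrays *SDH1* (-1.95, adjusted p = 0.0030), *SDH2* (-1.98, adjusted p = 0.0020) and *SDH4* (-2.46, adjusted p = 0.0010) passed at 1.5 h. The 6 partners of succinate and 2-oxoglutarate dehydrogenase had a median change of -1.02 at 1.5 h, -0.07 at 6 h and -0.70 in heme deficiency, and their median between 6 h and 1.5 h was 1.17. Among them *LPD1* alone was higher at 1.5 h (mean 13.09 against 12.77 in air) and in heme deficiency (9.95 against 9.60). At 6 h its mean was 12.48. The medians of the 10 cycle genes in the comparisons of the partner medians were -0.18, 0.14, -0.29 and 0.27.

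**Figure D5:**
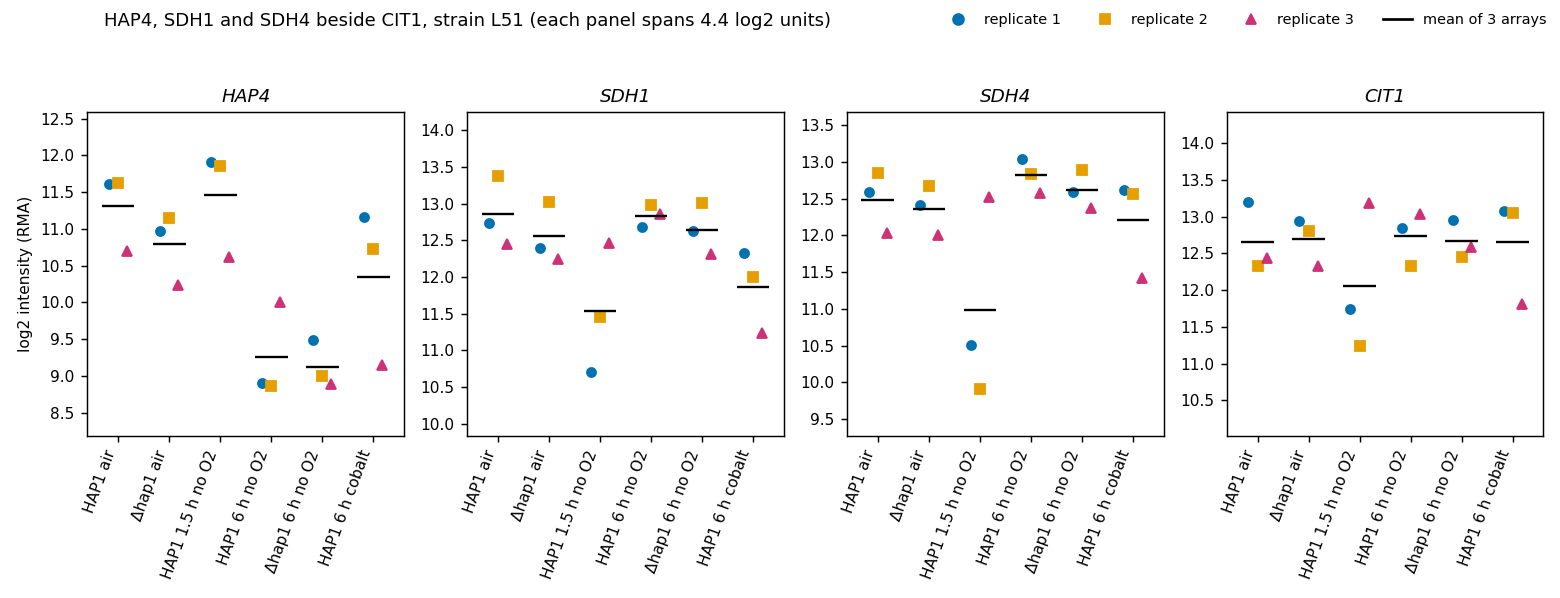
Log2 intensity (vertical axis, every panel spanning 4.4 log2 units) of *HAP4*, *SDH1*, *SDH4* and *CIT1* on the 18 L51 arrays, with symbols for the replicate number and bars for the mean of 3 arrays. *HAP4* has its lowest means at 6 h in both genotypes, with arrays from 8.86 to 10.00, whereas *SDH1*, *SDH4* and *CIT1* have their lowest mean at 1.5 h, where replicates 1 and 2 lie below replicate 3.

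Other routes into and around the cycle gave single calls. *FRD1*, a soluble fumarate reductase that lets fumarate accept electrons, was higher at 6 h than at 1.5 h (0.83, SE 0.24, adjusted p = 0.036), with 13.62, 13.80 and 13.18 against 12.87, 13.08 and 12.16. In heme-deficient cells it had 11.00, 10.13 and 10.80 against 9.56, 9.29 and 9.46 in heme-sufficient cells, without overlap (1.21, SE 0.24, adjusted p = 0.053). In *Δhap1* cells at 6 h *MPC3*, a subunit of the mitochondrial pyruvate carrier, was lower (-1.71, adjusted p = 0.038) than in aerobic *Δhap1* cells, with 1 of its 3 arrays at 6 h not above the *S. pombe* signal. *SFC1*, the succinate-fumarate carrier, passed in the same comparison (adjusted p = 0.028), but none of its values on the 18 arrays was above that signal, so no fold is given. *MDH2*, the cytosolic malate dehydrogenase, had 12.69, 12.37 and 11.96 in aerobic *HAP1* cells and was lower in *Δhap1* cells at 6 h (10.98, 11.16 and 10.81, -1.36, adjusted p = 0.049). Its changes at 1.5 h (-1.20), at 6 h in *HAP1* cells (-1.24) and with cobalt (-1.33) did not pass. They passed without the 3 arrays, at -1.23, -1.09 and -1.97 (adjusted p = 0.012, 0.013 and 0.0050). *CIT2*, the peroxisomal citrate synthase and a classic Rtg target, had changes of -0.37 (SE 0.24) at 6 h in *HAP1* cells and of 0.53 (SE 0.20, interval 0.08 to 0.98, adjusted p = 0.23) in heme deficiency, where its arrays did not overlap.

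Within the list, levels of the oxidative genes varied together across the 18 L51 arrays once the mean of each replicate number was removed. Pearson's r ranged from 0.36 to 0.89 over the 15 pairs of oxidative genes, with a median of 0.53, and the closest pair was *ACO1* and *IDH1* (0.89), followed by *CIT1* and *IDH2* (0.87). Between the branches it ranged from 0.28 to 0.67 over 12 pairs, with a median of 0.47. *FUM1* and *MDH1* had an r of 0.10, and the partner subunits *LSC1* and *LSC2* one of -0.14. On the 6 MHY100 arrays *ACO1* and *IDH1* again varied together (0.96), *CIT1* and *IDH1* in opposition (-0.72), and *LSC1* and *LSC2* together (0.82). These are descriptions, since the arrays share 3 per condition and a common normalization, and on L51 the replicate 3 arrays that stood apart enter them.

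The 5 other genes closest to the oxidative mean across the L51 arrays were *ATG19* (r = 0.92), *ULA1* (0.91), *YDL124W* (0.89), *GGA1* (0.88) and *DDR48* (0.87), against a median of 0.02 over all genes. On the MHY100 arrays the same 5 had r of 0.22, 0.28, -0.51, 0.08 and -0.74. Closest to the reductive mean were *RRT6* (0.86), *DSC3* (0.79), *PIC2* (0.77), *MAL11* (0.76) and *COA4* (0.76), against a median of 0.11, with r from -0.54 to 0.57 on the MHY100 arrays.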

How the data were processed

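The authors converted array images with GCOS and summarized probes with RMA, which corrects the background and quantile-normalizes, and deposited linear intensity values, L51 and MHY100 arrays separately. Versions are not given in the sample notes. Hybridization times, the other deposited values used, came from the experiment settings and gave the rounds. Here log2 of the intensity was taken. Of 10928 and 9335 probe sets, 5498 and 6504 named a single *S. cerevisiae* gene, and the brightest on average stood for each gene. All genes were fitted in limma 3.58.1 under R 4.3.3, with statmod 1.5.0 and Benjamini-Hochberg adjustment. The L51 fit took all 18 arrays with the replicate number as a block, since the study's fold-change table holds a value for each replicate number. The 6 MHY100 arrays were fitted without a block, because 1 heme-sufficient array is replicate 1 by its title, which was used, and 3 by its source name. Same-numbered L51 arrays shared a hybridization day, and after each condition's mean was taken off they correlated with a median r of 0.56 (number 1), 0.71 (number 2) and 0.25 (number 3), the lowest pairs being -0.09, -0.38 and -0.44.

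All 10 members are named. Of related lists the genes past the threshold are named, and for likeness the 5 closest genes to each branch. *SDH1*, *SDH2*, *CIT2* and *HAP4* are also given in some comparisons without a call, though not in all, and *LPD1* for its direction. The members, lists, tests and alternatives were chosen with earlier results of these data known. Alternatives were no replicate block (or, for MHY100, one), the hybridization round as the block, fits of only the groups compared, quantile scaling, an offset of 50, leaving out dim genes (4904 and 4335 kept, all 10 members among them), averaging a gene's probe sets, weighting arrays, a variance trend on intensity with robust moderation, leaving out replicates and leaving out 3 arrays. The fits were tested on simulated data. The number of arrays limits the precision. The authors' own fold changes were not used. Promoter and protein sequences were not analysed here.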

Additional observations from a re-analysis of the deposited data

How the results depend on the processing

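Over 100 member-by-comparison results and their alternatives, 1310 values were recomputed. None changed sign and passed, 1291 stayed short of the threshold and 19 passed it. Averaging probe sets and leaving out dim genes kept the members' own values, so these alternatives could change only the shared variance estimate and the adjustment. Without 3 arrays 2 members passed at 1.5 h (8.48% of all genes) and 1 between 6 h and 1.5 h (26.6%). With quantile scaling 1 passed in *Δhap1* cells at 6 h against aerobic *HAP1* cells (6.97% of all genes). With the hybridization round as the block 2 passed in heme deficiency (17.3%). With array weights 5 passed at 1.5 h (35.5% of all genes) and 1 at 6 h in *Δhap1* cells (41.8%). They also gave 2 in *Δhap1* cells against aerobic *HAP1* cells (39.4%) and 3 between 6 h and 1.5 h (51.4%). These weights were set gene by gene, because the default estimate did not converge on the L51 arrays. Leaving out a replicate in turn gave 0 to 1 members at 1.5 h and between 6 h and 1.5 h (*CIT1*, without replicate 3) and 0 elsewhere.

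Without the replicate block, and with one for heme deficiency, 0 members passed in every comparison. The block changed the background: without it limma called 9 genes of all for *HAP1* cells at 6 h, 47 for *Δhap1* cells and 0 between 6 h and 1.5 h, against 117, 593 and 832. All 14 related-gene calls on L51 arrays were then lost, and with the round as the block 13 were, *SDH4* being the exception. The branch gap with the round as the block was 0.31 at 6 h in *Δhap1* cells, 0.48 against aerobic *HAP1* cells and 0.56 between 6 h and 1.5 h. For *HAP1* cells at 6 h its highest value under any alternative was 0.40. The 6 h arrays share no round with aerobic arrays, and with 1.5 h arrays only in replicate 2. Leaving out replicates moved the gap between -0.42 and -0.07 at 1.5 h, between -0.004 and 0.31 at 6 h in *HAP1* cells, between 0.39 and 0.44 between 6 h and 1.5 h, and between 0.21 and 0.30 in heme deficiency. In heme deficiency *HAP4* passed under 11 of 14 alternatives, and lost the call without any 1 heme-sufficient array (highest adjusted p = 0.14).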
